A study of Mus musculus with 12 samples.

Results

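Sik1 encodes salt-inducible kinase 1, a serine/threonine kinase of the AMP-activated kinase family that was formerly named Snf1lk. Its transcript was followed in mouse hippocampus 1 hour after kainate or saline, in control mice and in mice that had lost the transcription factors CREB and CREM. All probe sets with the platform symbol Sik1 or Snf1lk were taken, which gave 1 gene of 5928 with a symbol of their own, read by 1 probe set (171483_i_at) of the 11934 in the table. It passed the filter on dim signal, for which 3 or more arrays had to reach log2 4.

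Salt-inducible kinases are switched on by the kinase LKB1 (gene Stk11) and inhibited by protein kinase A. When active, they phosphorylate the CRTC co-activators of CREB and the class IIa histone deacetylases, which are then held in the cytoplasm. Sik1 is itself transcribed in response to cAMP and calcium through CREB, so its product acts as a brake on the pathway that induces it. Kainate, an agonist of a class of glutamate receptors, drives strong neuronal firing and seizures, and the genes that respond within the first hour include many CREB targets.

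The 12 arrays, array C of the murine U74 set, formed 4 groups of 3. These were control mice given saline, control mice given 20 mg/kg kainate, mutant mice given saline and mutant mice given 20 mg/kg kainate, all injected intraperitoneally. The mice were littermates of both sexes aged 5 to 6 weeks that had been caged singly and handled for 5 days, and the RNA of 3 animals was pooled for each array. The labels say control or mutant, the series title adds the loss of CREB and CREM, and which alleles were used, or in which cells, is not stated there. The labels call the arrays of a group biological replicates, so a test measures the spread between pools of animals. Values are log2 GCRMA signals throughout, the error after a difference is its standard error, and each 95% interval covers that 1 difference without adjustment for the number of probe sets.

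Some arrays stood apart from their group. Mutant kainate replicate 3 was weak: at log2 5 to 7 its median difference from the average of mutant kainate 1 and 2 was -0.50 over 1000 probe sets, and -1.17 at log2 7 to 9. The array labelled control kainate replicate 3 read 12.95 for Gfap, the astrocyte filament gene, while control kainate 1 and 2 read 11.51 and 11.53. Mutant kainate replicate 3 read 11.55, near those values, and the other mutant arrays 12.23 to 13.03. Whether these replicate 3 labels were exchanged was not tested. The replicate 1 arrays lay at 10.8 to 14.4 on the second principal component and the rest at -15.1 to 9.05, so values within replicate 1 and within replicates 2 and 3 are given beside the pooled ones. Of 28 markers of hippocampal neurons 7 were on the array and 2 were measured above the filter, Nrgn and Slc17a7.

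At rest, Sik1 was a weak signal in both genotypes and read lower in the mutants. The control saline arrays read 5.21, 5.36 and 4.59 in the order of their replicate numbers, a mean of 5.05 ± 0.41 (SD, n = 3 arrays). The mutant saline arrays read 4.39, 4.41 and 4.43, a mean of 4.41 ± 0.02 (SD, n = 3 arrays). Every mutant array lay below every control array, by 0.15 at the closest. The difference of -0.64 ± 0.27 (0.641-fold, 95% interval -1.25 to -0.03) did not pass over all probe sets (limma, adjusted p = 0.392). Replicate 1 alone gave -0.82, and replicates 2 and 3 gave -0.55.

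The resting difference stood on a table in which many probe sets parted the saline groups. Of the 3541 tested, 5.11% lay lower in mutants without overlap and 29.0% higher, and 0% passed the test in either direction, with 12.1% at an unadjusted p under 0.05. Sik1 ranked 54 from the lowest difference. The very small spread of the mutant saline arrays lay close to the dim level of 4. Among 721 probe sets with a mutant saline mean within 0.2 of that of Sik1 the median SD was 0.07, and 8.6% had a smaller SD than Sik1. In the control saline group, by contrast, 89.4% of 303 such probe sets had a smaller SD, with replicate 3 at 4.59 below the others. Whether the mutant signal was above the background of this probe set was not tested.

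After kainate, Sik1 was higher in both genotypes on every array. In control mice it read 6.91, 7.49 and 6.44, a mean of 6.95 ± 0.52 (SD, n = 3 arrays). In mutant mice it read 5.83, 6.28 and 5.92, a mean of 6.01 ± 0.24 (SD, n = 3 arrays). The lowest control kainate array lay 1.08 above the highest control saline array, and the lowest mutant kainate array 1.40 above the highest mutant saline array. Even the lowest kainate array of all, a mutant one, lay 0.47 above the highest saline array of all, a control one.

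**Figure D1:**
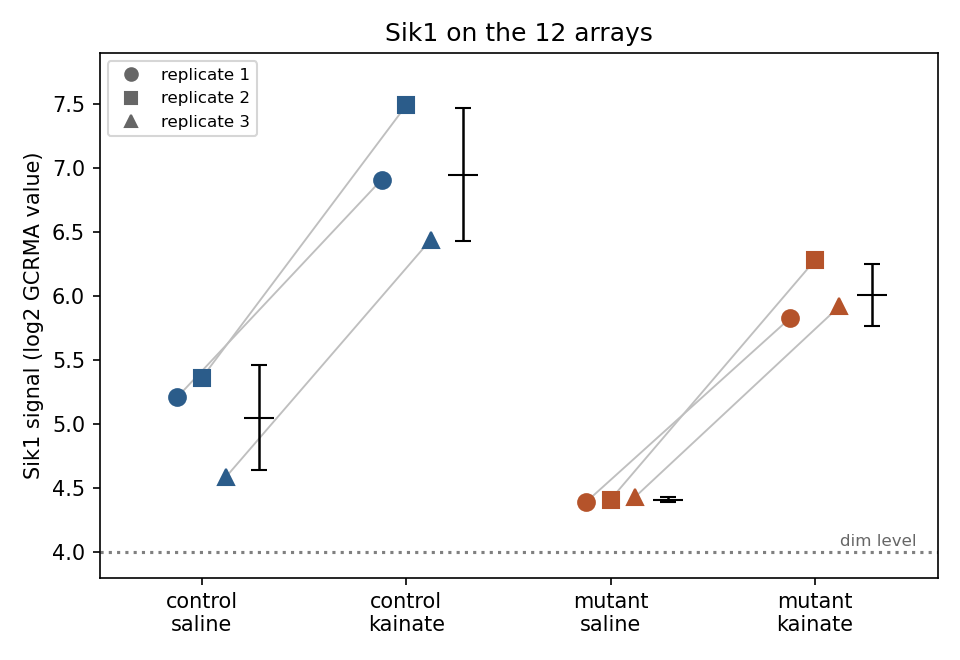
Sik1 signal (log2 GCRMA value, vertical axis) on each of the 12 arrays by group, with the replicate number as the marker and thin lines joining arrays of the same number within a genotype; black bars are the group mean and SD (n = 3), and the dotted line is the dim level of 4. The mutant saline arrays sit between 4.39 and 4.43, the control saline arrays between 4.59 and 5.36, the mutant kainate arrays between 5.83 and 6.28 and the control kainate arrays between 6.44 and 7.49.

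Averaged over the genotypes, kainate raised Sik1 3.36-fold (95% interval 2.49 to 4.53), a log2 difference of 1.75 ± 0.19 with 6 of 6 kainate arrays above every saline array. This passed over all probe sets (limma, adjusted p = 0.00704), where 0.141% of the 3541 passed, all higher, and 11.3% had an unadjusted p under 0.05. Only 0.395% of probe sets had all kainate arrays above all saline arrays. With the treatment labels exchanged within each genotype, the exact two-sided permutation test gave p = 0.005, the smallest its 400 arrangements allow. Any probe set with that separation gives this value, so the permutation adds nothing to the lack of overlap. The exchange also took no account of the shared replicate numbers. Replicate 1 alone gave a rise of 1.57, and replicates 2 and 3 gave 1.84. It passed under every other setting tried, with adjusted p from 0.000353 to 0.0377.

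Within each genotype Sik1 was higher after kainate, but neither induction reached the threshold alone. In control mice it was 1.89 ± 0.27 (3.72-fold, 95% interval of the fold 2.44 to 5.67, limma adjusted p = 0.0678), the rank 2 probe set by p, where 0.0282% of probe sets passed and 4.46% had an unadjusted p under 0.05. In mutant mice it was 1.60 ± 0.27 (3.04-fold, 95% interval of the fold 1.99 to 4.63, limma adjusted p = 0.139), the rank 5 probe set by p, where again 0.0282% passed and 8.47% had an unadjusted p under 0.05. The kainate arrays lay above the saline arrays without overlap on 6.02% of probe sets in control mice and on 1.67% in mutants. Exact permutation of 3 arrays against 3 gave p = 0.10 in each genotype, the smallest it can give. The mutant induction starts from a saline mean of 4.41, near the dim level, and whether that signal was above background was not tested.

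Of 23 other settings, 8 brought the induction in control mice past the threshold and 2 that in mutants. Over all of them the limma adjusted p ran up to 0.394 in control mice and up to 0.699 in mutants. Without control kainate replicate 3 the induction in control mice was 2.15 ± 0.25 (adjusted p = 0.0412). Same-numbered control arrays deviated together over all probe sets, and with the replicate number as a block the adjusted p was 0.0212 at the same difference of 1.89. Without mutant kainate replicate 1 the induction in mutants was 1.69 ± 0.31 (adjusted p = 0.0369). The unadjusted limma p of Sik1 was larger there, at 0.000521 against 0.000197 with all arrays, so its own evidence did not grow.

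The difference between the inductions of the 2 genotypes did not pass the test. Mutant minus control induction was -0.29 ± 0.38 (95% interval -1.15 to 0.57, limma adjusted p = 0.973), so the interval for the mutant fold over the control fold ran from 0.449 to 1.48. No probe set of 3541 passed this test (0%), and 0.875% had an unadjusted p under 0.05. Taken by replicate number, the induction was 1.70, 2.13 and 1.86 in control mice and 1.44, 1.87 and 1.49 in mutants. The mutant value was lower for each number, by -0.26, -0.25 and -0.37 as mutant minus control, a mean of -0.29 ± 0.07 (SD, n = 3 numbers). Same-numbered arrays of the mutant groups did not count as paired (correlations of 0.479, 0.0448 and -0.0779 over all probe sets). The SD of 0.07 rests on that pairing and does not replace the error of 0.38 from the fit. With the replicate number as a block the difference was -0.29 ± 0.28 (limma, adjusted p = 0.931). An exact test that flips the signs of the 3 values by number cannot go below p = 0.25, which is the value it gave. The mutant saline signal near the dim level limits this comparison of inductions too.

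The interaction moved with single arrays and turned with the scaling. Quantile normalization of the arrays again moved the weak array, mutant kainate replicate 3, from 5.92 to 6.69 for Sik1. The mutant minus control induction became 0.09 ± 0.44 (adjusted p = 0.998). As deposited, its Sik1 value differed by -0.13 from the average of mutant kainate 1 and 2, a smaller gap than the median of -0.50 for probe sets at log2 5 to 7. Without it the interaction was -0.25 ± 0.42, and without control kainate replicate 3 it was -0.54 ± 0.34. Without control kainate replicate 2 it was -0.02 ± 0.33, without control saline replicate 3 it was -0.06 ± 0.36, and without control saline replicate 2 it was -0.45 ± 0.40.

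The rise was also taken on the linear scale, where it depends on the resting level as well as on the fold. The linear signal was higher after kainate by 94.8 units in control mice and by 43.8 units in mutants, from the means of the linear values, a ratio of 2.16. By replicate number the linear rise was 83.1, 138 and 62.9 in control mice and 36.0, 56.4 and 39.1 in mutants. The control rises ran above the mutant rises without overlap, though same-numbered arrays of the mutant groups did not count as paired. The share of all probe sets with such a parting was not counted. The linear rises were not taken after quantile normalization, which moved Sik1 on mutant kainate replicate 3 from 5.92 to 6.69. No test was run on this scale.

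**Figure D2:**
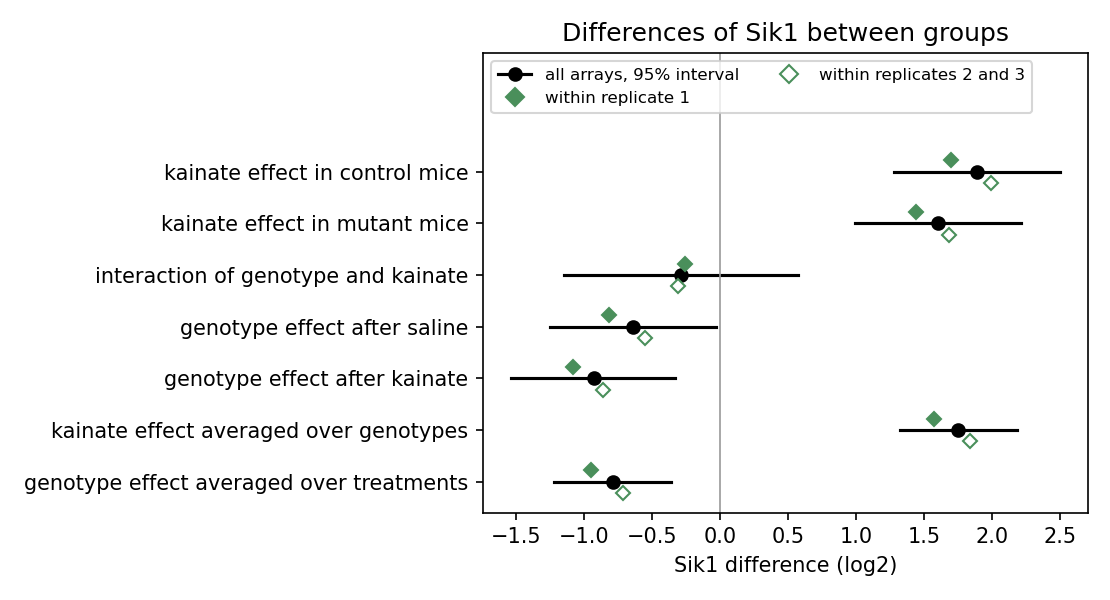
Differences of Sik1 between groups (log2, horizontal axis) for each comparison, as estimates with 95% intervals from the fit of all 12 arrays (black) and as differences of means within replicate 1 (filled diamonds) and within replicates 2 and 3 (open diamonds). The kainate differences lie between 1.44 and 1.99 in either set of replicates, the genotype differences between -1.08 and -0.55, and the interval of the interaction spans 0.

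After kainate, Sik1 was also lower in mutants than in control mice. The difference was -0.93 ± 0.27 (0.523-fold, 95% interval -1.54 to -0.33), with the highest mutant kainate array 0.16 below the lowest control kainate array. It did not pass over all probe sets (limma, adjusted p = 0.55), where 0% passed, 4.72% had an unadjusted p under 0.05 and 3.78% lay lower without overlap. Replicate 1 alone gave -1.08, and replicates 2 and 3 gave -0.86. Without control kainate replicate 3, whose Gfap value lay in the range of the mutant arrays, it was -1.19 ± 0.25 (adjusted p = 0.517). After quantile normalization it was -0.56 ± 0.31, and mutant kainate replicate 3 (6.69) then read above control kainate replicate 3 (6.38). As deposited these arrays read 5.92 and 6.44, and with their labels exchanged the genotypes would overlap after kainate.

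The genotype difference averaged over both treatments was added after these values were seen. It was -0.79 ± 0.19 (0.579-fold, 95% interval of the log2 difference -1.22 to -0.36) and did not pass (limma, adjusted p = 0.247), where 0% passed and 19.1% had an unadjusted p under 0.05. All mutant arrays, as labelled, lay below all control arrays of the same treatment, as on 0.762% of probe sets. Exact permutation of genotype within treatment gave p = 0.005, the smallest of its 400 arrangements. Any probe set with that separation gives this value, so the test adds nothing to the lack of overlap. It also exchanged arrays without regard to the replicate numbers that the groups share.

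In order of level the groups ran from mutant saline through control saline and mutant kainate to control kainate, and no neighbours overlapped. Of the 3541 probe sets, 0.113% (4) had no overlap between any of the 4 groups: Sik1, Kcnj2, B230217C12Rik and AI429214, each with its groups in another order. This count was added after the values were seen, and Sik1 is in it only with the replicate 3 kainate arrays as labelled. The steps between genotypes at either treatment did not pass the test over all probe sets, and control saline and mutant kainate, which differ in both factors, were not tested against each other.

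No other measured member of the SIK family list passed for kainate. Sik3, the paralogue, had values between 3.39 and 4.35, close to log2 4, and differed by 0.04 ± 0.21 with kainate averaged over genotypes (95% interval -0.44 to 0.53, limma adjusted p = 0.96). Sik2 read 2.92 to 3.12, below the filter. Strada, a pseudokinase that activates LKB1, read 4.28 to 4.55 in control saline and spanned 1.11 to 4.85 in mutant kainate. Of the 15 listed genes of the SIK family and its activating complex 6 were on the array and 3 were measured, and Sik1 was the 1 that passed with kainate averaged over genotypes. Among 2 measured AMPK-related kinases of 17 listed, Brsk2 and Prkag2, none passed in any comparison, where at most 0.141% of all probe sets did.

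Among the substrates of the kinase, 4 of 11 listed genes were measured and none passed. At most 0.141% of all 3541 probe sets passed in any comparison, so a count of none says little about the substrates. Crtc3, a CREB co-activator held in the cytoplasm by SIKs, read 5.78 to 5.81 in control saline and 5.37 to 5.53 in control kainate, without overlap. Of all tested probe sets, 4.63% were lower after kainate in control mice without overlap. Averaged over genotypes it was -0.34 ± 0.10 (limma, adjusted p = 0.349), but in mutants replicate 1 gave 0.02 where replicates 2 and 3 gave -0.54. Its relative Crtc1 went the other way, by 0.39 ± 0.16 (adjusted p = 0.396), of which replicate 1 gave -0.05 and replicates 2 and 3 gave 0.61. Hdac4 and Hdac9, class IIa deacetylases, were -0.89 ± 0.54 by the brighter Hdac4 probe set and -0.30 ± 0.33, both with groups that overlapped.

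Creb1 and Crem, the genes of the lost factors, were each measured by 1 probe set above the filter, and neither read lower in mutants. Creb1 read 4.77 to 5.11 over the arrays and Crem 4.37 to 4.83. In mutants after saline the differences were 0.12 ± 0.08 and 0.24 ± 0.08 (limma, adjusted p = 0.627 and 0.385). Whether these probes lie in the deleted parts is not stated in the labels, so the levels check nothing about the labels. Downstream of the deacetylases, 5 of 14 listed MEF2-linked genes were measured and none passed. Upstream of Sik1, 8 of 41 listed genes of cAMP and calcium signalling were measured, and none passed in any comparison. With at most 0.141% of all probe sets passing, these counts of none say little about either list. Prkaca, the catalytic subunit of protein kinase A, was 0.10 ± 0.25 with kainate averaged over genotypes (adjusted p = 0.917).

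Among induced genes, the kainate difference of Sik1 lay above the median in both genotypes and below those of Kcnj2 and Apold1. In mutants, at 1.60, it also lay below Egr4 (2.06), Egr3 (1.66) and Gm13889 (1.65). Of 65 activity-induced genes listed, 17 were on the array and 10 were measured, and Sik1 was not among them. Their median kainate difference was 1.13 in control mice and 1.05 in mutants, beside 0.01 and -0.08 over all probe sets. Kainate values were higher for 7 of the 10 and lower for 3 (Cgref1, Cpeb4 and Spry4) in either genotype. The lists were chosen with earlier results of these data known, so these medians are no test. In each genotype 1 of the 10 passed, the potassium channel gene Kcnj2, and with the genotypes averaged 3 passed higher and 0 lower, Kcnj2, the zinc-finger factor Egr3 and the endothelial early response gene Apold1. A listed gene was counted by its brightest probe set, and a dimmer probe set of Gm13889 also passed with the genotypes averaged (2.4 ± 0.26, limma adjusted p = 0.00704), while its brightest did not (1.38 ± 0.23, adjusted p = 0.0934). The 6 measured of 44 other CREB targets had a median of 0.74 in control mice and 0.43 in mutants. They include Crem, a gene of the lost factors, at 0.01 ± 0.08 and -0.13 ± 0.08. Of the 6, Egr3 passed with the genotypes averaged, and 3 of them (Egr3, Egr4 and Rgs4) are in both lists.

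In the resting and kainate levels Sik1 stood lower in mutants than most of these genes. Their medians for mutant minus control were -0.01 after saline and 0.12 after kainate for the activity-induced genes. For the CREB targets, Crem included, they were -0.05 and -0.42, beside -0.64 and -0.93 for Sik1. None of these genes passed for genotype, nor did any other probe set (0%). The range was wide: Kcnj2 was 0.51 ± 0.24 after saline and -0.63 ± 0.24 after kainate, and Egr3 -0.48 ± 0.26 and -0.43 ± 0.26. Apold1, at -0.23 ± 0.37 after saline and -0.98 ± 0.37 after kainate, lay below Sik1 after kainate. Penk was also lower in mutants after saline, with means of 5.21 in control mice and 4.59 in mutants.

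**Figure D3:**
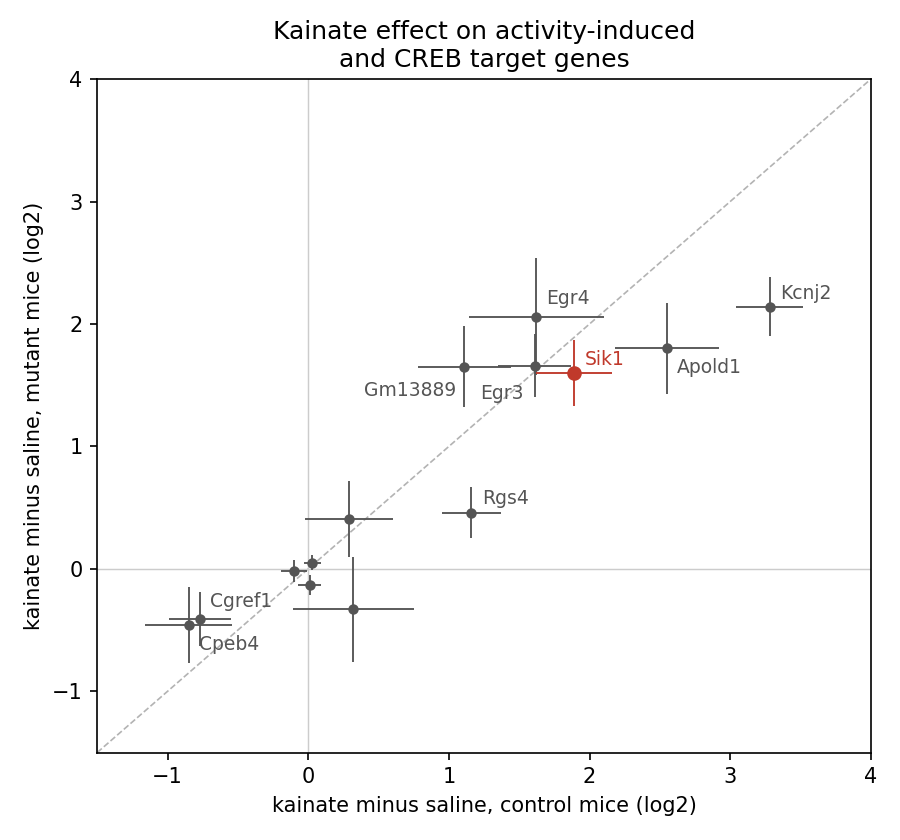
Kainate minus saline (log2) in control mice (horizontal axis) against mutant mice (vertical axis) for Sik1 (red) and the 13 other measured activity-induced and CREB target genes, with standard errors from the fit as bars; the dashed line marks equal differences. Sik1 lies at 1.89 and 1.60, near Egr3 at 1.61 and 1.66, while Kcnj2 at 3.28 and 2.14 and Apold1 at 2.55 and 1.80 lie farther below the line.

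The probe sets whose values ran most like Sik1 over the 12 arrays were led by the same induced genes. Among 2712 named probe sets the highest Pearson correlations were 0.89 for Egr3, 0.88 for Apold1, 0.87 for Kcnj2, 0.85 for Serpinb3a and 0.85 for the probe set of Gm13889 that is dim after saline. Pla2g7, E130311K13Rik, Atat1, Egr4 and Apoe followed at 0.82 to 0.78. These 12 points share 4 groups, so the correlation includes the step between saline and kainate. On the deviations from the group means it was -0.02 for Egr3, -0.14 for Apold1 and 0.16 for Kcnj2. It was 0.71 for E130311K13Rik, 0.62 for Serpinb3a, 0.57 for Atat1, 0.44 for Gm13889, 0.42 for Egr4, 0.29 for Apoe and 0.27 for Pla2g7. Of the 10, 6 stayed among the first 10 without the 2 arrays that stand apart and 8 after quantile normalization.

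The brighter Egr3 probe set, unlike Sik1, had genotypes that overlapped at either treatment. It read 9.05 to 9.41 in control saline and 8.28 to 9.24 in mutant saline, then 10.68 to 10.94 in control kainate and 10.05 to 10.82 in mutant kainate. The dimmer Egr3 probe set differed by 1.43 ± 0.62 with kainate in control mice and 0.97 ± 0.62 in mutants. Kcnj2 had its saline groups in the opposite order, with 5.91 to 6.55 in control mice and 6.65 to 6.84 in mutants, as 29.0% of all tested probe sets did. Its kainate groups were in the same order as Sik1, with 9.37 to 9.60 and 8.27 to 9.23. Egr4, at 6.02 to 6.58 in control kainate and 5.25 to 7.55 in mutant kainate, showed no order between genotypes.

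CREB and CREM bind the cAMP response element, written TGACGTCA in full, of which TGACG on either strand (CGTCA on the other) is the short form. RefSeq promoters of build GRCm38.p6, 250 bases before to 50 after each start, held no entry for Sik1, Egr3 or Gm13889. Of the 10 genes that ran most like Sik1, 8 had an entry, with 11 promoters in all. The short form was in 4 of these promoters, of 3 genes (Apold1, Egr4 and Atat1, whose 2 promoters overlap), and the full form in none. Over all 32851 promoters 20.8% held the short form and 1.79% the full one, which also counts as short. By gene, 23.0% of 27025 held the short form in at least 1 promoter. The promoters of Apold1 and Egr4 are shown because both genes are on the activity-induced list and hold it, though Egr4 did not pass for kainate averaged over genotypes (1.84 ± 0.34, limma adjusted p = 0.158). They are on the strand of the gene with each short form in capitals. Its first base lies 52 bases before the start in Apold1 (chr6:134981751-134982050, plus strand) and 177 and 109 bases before it in Egr4 (chr6:85513540-85513839, minus strand).
Apold1: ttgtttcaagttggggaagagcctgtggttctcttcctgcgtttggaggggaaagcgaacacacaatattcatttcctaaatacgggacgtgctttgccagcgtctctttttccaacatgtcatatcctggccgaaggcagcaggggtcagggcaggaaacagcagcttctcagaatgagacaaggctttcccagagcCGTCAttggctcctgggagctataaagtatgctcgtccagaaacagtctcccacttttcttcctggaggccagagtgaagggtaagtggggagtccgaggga
Egr4: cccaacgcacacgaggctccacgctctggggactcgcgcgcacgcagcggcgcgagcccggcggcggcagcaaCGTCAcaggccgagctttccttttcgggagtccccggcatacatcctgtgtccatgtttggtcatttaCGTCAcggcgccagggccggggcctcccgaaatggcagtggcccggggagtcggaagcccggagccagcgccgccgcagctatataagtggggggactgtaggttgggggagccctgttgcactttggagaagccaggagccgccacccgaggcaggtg
A match of these letters is a description and no evidence of binding, and the promoter of Kcnj2, which had the highest kainate difference averaged over genotypes, held none in this window.

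RNA quality and other cell types were set beside the Sik1 values. The actin 3' minus 5' difference, which grows as RNA is broken down, was 2.20 to 2.44 on the kainate arrays of replicates 2 and 3 and 1.74 to 1.83 on their saline arrays. Within replicate 1 it ran the other way, with 1.77 and 1.61 after kainate against 1.92 and 2.00 after saline. The Gapdh 3' minus 5' difference was higher after kainate for every replicate number in both genotypes. It was -0.147, 0.119 and 0.0207 in control saline, -0.0931, 0.151 and 0.123 in control kainate, -0.08, 0.0106 and 0.0648 in mutant saline and -0.0753, 0.322 and 0.233 in mutant kainate. Sik1 was higher after kainate for every replicate number too, and the part of RNA quality in its rise was not tested. Between genotypes the actin difference overlapped in the saline groups, with 1.74 to 1.92 in control mice and 1.74 to 2.00 in mutants.

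Of 16 astrocyte markers 5 were measured, with a summed level (log2 of the summed signal) of 10.90 to 11.64 in control saline, 12.28 to 13.02 in mutant saline, 11.55 to 13.00 in control kainate and 11.65 to 13.07 in mutant kainate. The summed level parted the genotypes at rest, higher in mutants, and Gfap carries most of it, with saline means of 11.16 in control mice and 12.57 in mutants. Of all 3541 tested probe sets, 29.0% also lay higher in mutant saline without overlap, so such a parting is common here. The saline means of the other 4 markers lay close together, with 3.83 and 3.84 for Apoe, 5.13 and 5.16 for Mlc1, 5.92 and 5.85 for Slc1a2 and 4.57 and 4.47 for Pla2g7, control first. The 3 measured microglia markers of 14 ran 9.56 to 9.76 in control saline and 10.12 to 10.38 in mutant saline. After kainate they overlapped, at 9.82 to 10.66 in control mice and 9.10 to 10.56 in mutants. Laptm5 carries most of this sum, with saline means of 9.27 and 9.94, control first. Those of Cx3cr1 were 7.16 and 7.44, and those of P2ry12 4.84 and 4.98. The 2 neuron markers overlapped at 11.67 to 12.61 and 11.66 to 12.36, and the 1 endothelial marker, Flt1, at 6.49 to 6.95 and 6.44 to 6.62. The part of cell makeup in the Sik1 differences was not tested, and in whole tissue fewer cells of a type and less RNA per cell cannot be told apart.

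Over 22 or 23 other settings for each comparison the kainate difference averaged over genotypes ran from 1.61 to 1.98, that in control mice from 1.62 to 2.17 and that in mutants from 1.47 to 1.92. The genotype difference ran from -0.88 to -0.36 after saline and from -1.19 to -0.56 after kainate, and passed under none of them.

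**Figure D4:**
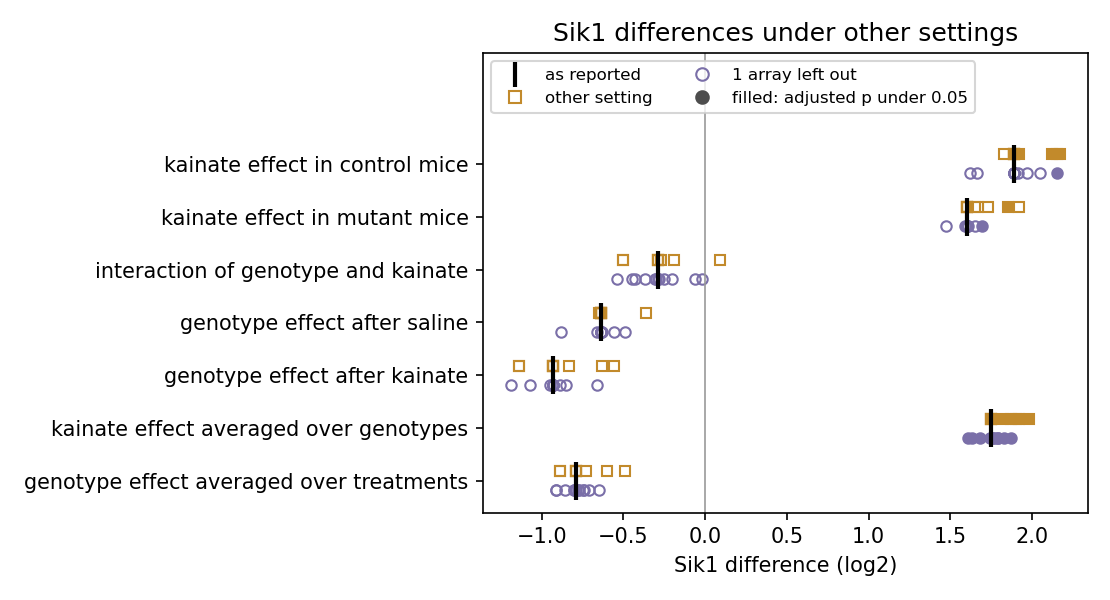
Sik1 differences (log2, horizontal axis) for each comparison as reported (black bar), under other settings (squares) and with 1 array left out (circles), filled where the adjusted p was under 0.05. The kainate difference averaged over genotypes is filled throughout at 1.61 to 1.98, no genotype difference is filled, and the interaction runs from -0.54 to 0.09.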

How the data were processed

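The deposited table holds log2 values that the authors made with GCRMA in R 2.4.1, per the submitters' processing notes; the GCRMA version is not stated there. The medians of the arrays lay between 3.26 and 3.41. No normalization was added. Of 11934 probe sets 66 controls were left out, and 3541 of the other 11868 (29.8%) reached log2 4 on 3 or more of the 12 arrays and were tested. Groups were compared with limma 3.58.1 in R 4.3.3 (lmFit, contrasts.fit, eBayes), with a mean for each of 4 groups and 8 residual degrees of freedom. P-values were adjusted by Benjamini-Hochberg over the 3541, with a threshold of 0.05; the fit was tested on simulated data. The precision is limited by 3 arrays a group. Symbols came from the platform annotation, updated through the RefSeq gene table. A lone symbol was held by 2713 of the tested probe sets, several symbols by 39 and none by 789.

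Named are Sik1, the 10 named probe sets with the highest Pearson correlation with it, the measured SIK, CRTC and CREB family genes, and from each gene list the members that passed or differed most. A listed gene with several probe sets was counted by its brightest one. The gene, lists, tests and alternatives were chosen with earlier results of these data known. Alternatives were no filter, a filter at log2 5, quantile normalization, median centring, fewer arrays, blocks, array weights and a variance trend.

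Replicate numbers are shared between groups. Same-numbered arrays deviated together with correlations of 0.627, 0.383 and 0.458 between the control groups, 0.855, 0.47 and 0.482 between the saline groups, and 0.578, 0.333 and 0.19 between the kainate groups, which counted as paired. Those between the mutant groups were 0.479, 0.0448 and -0.0779, which did not.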

Additional observations from a re-analysis of the deposited data

How the results depend on the processing

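The kainate difference of Sik1 averaged over genotypes passed under all 22 other settings, and the genotype differences after saline, after kainate and averaged passed under none. In control mice the induction passed with the stricter filter (1.89), the replicate block (1.89), a variance trend (1.89), median centring (1.92), array weights (2.12), and without control kainate 3 and mutant kainate 3 with (2.17) and without (2.15) the block of replicate 1 against 2 and 3. The last of these was chosen after seeing the data. In mutants it passed with array weights (1.85). With 1 array left out these ran from 1.62 to 2.15 and from 1.47 to 1.69. The interaction reversed to 0.09 after quantile normalization. The replicate block changed no other call: adjusted p was 0.068 for kainate in mutants and 0.542 for genotype after saline and after kainate. With it 3 probe sets passed for kainate in control mice and 2 in mutants, against 1 and 1. Array weights, whose estimation stopped short of its tolerance, gave 113 and 1007 probe sets for kainate in control mice and mutants, 477 for genotype after kainate, 1018 against 5 for kainate averaged and 938 against 0 for genotype averaged. Without control kainate 3 and mutant kainate 3, with the block, these counts were 7, 5, 4, 20 and 29. Quantile normalization gave 9 for kainate averaged, and leaving out mutant kainate 1 gave 56. Over all settings that kept 12 arrays or left out the pair, the counts ran from 1 to 113 for kainate in control mice and from 0 to 1007 in mutants, and with 1 array left out from 1 to 4 and from 0 to 67. The cause of these differences in count was not tested. A signal at log2 4.41 in mutant saline lies near the dim level, which limits what its difference from control can show.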
